A study of Mus musculus with 9 samples.

Results

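The comparison was made between lung neutrophils of low and of high surface Ly6g, sorted from the same kind of tissue, the macrometastatic lung. Members were chosen by their labels: 3 Ly6Glow and 3 Ly6Ghigh bulk RNA-seq libraries of 9 in the series. All 6 came from the lungs of female BALB/c mice that had received an orthotopic injection of 4T1-LM3 cells into the mammary fat pad and had reached the macrometastatic stage, from the fourth week on. 4T1-LM3 cells descend from the 4T1 mouse mammary carcinoma and home to the lung. The labels name the same tumor, host strain and stage for both groups and no difference between them but the Ly6g gate. The other 3 libraries, Ly6Ghigh neutrophils of normal lung, were not compared. They entered the filter on low counts, the scaling of libraries and the model's estimate of the spread between libraries. With the 6 compared libraries alone, 12481 genes were tested in place of 14108. No treatment other than the tumor injection is named for these mice. Their age at sorting is not stated, nor whether a library held cells of a single mouse or of pooled mice, so the p-values measure the spread between these libraries, which may be technical. Both groups came from 1 tumor line. The study's general method for lung neutrophils stains for CD45, CD11b and Ly6g before sorting. Its RNA-seq methods name only CD45 and Ly6g for the sorted cells. CD11b is carried by neutrophils but also by monocytes, macrophages, eosinophils and NK cells.

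Ly6g is a surface protein of mouse neutrophils that appears on late precursors in the bone marrow and is carried by mature cells. Neutrophils are made in waves. Azurophil (primary) granule proteins such as myeloperoxidase and the elastase family are transcribed in promyelocytes, specific (secondary) granule proteins such as lactoferrin and cathelicidin in myelocytes, and the late genes, among them the chemokine receptor Cxcr2 and the receptor for G-CSF, in segmented cells that no longer divide. The comparison asks which transcripts set the Ly6Glow fraction of the metastatic lung apart from the Ly6Ghigh fraction.

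Expression was measured for 18325 genes, of which 14108 passed the filter on low counts and were tested with edgeR's quasi-likelihood test on estimated read counts. Levels are given as CPM, read counts relative to the library total after scaling by TMM factors (a trimmed mean of gene ratios), and always in the order of replicates 1, 2 and 3. Fold changes are log2 values, Ly6Glow minus Ly6Ghigh, and a gene is said to have risen or fallen where the Benjamini-Hochberg adjusted p was at most 0.05 and the absolute log2 fold change was above 0.58. Counts summed to between 15267177 and 17841807 per library.

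Of the 14108 tested genes 3560 passed, 25.2% of all. In Ly6Glow neutrophils 1310 genes were higher (9.29%) and 2250 were lower (15.9%). The 3 and 3 libraries did not overlap for 62.1% of all tested genes, among them 1262 of the raised and 2197 of the lowered ones. The decreases were steeper, with 258 genes below -2 on the log2 scale against 16 genes above 2. The genes that rose were the more abundant ones. Their median level over the 6 libraries was 26.1 CPM, against 4.81 CPM for the genes that fell and 9.26 CPM for all tested genes. The genes that rose took 19.7% to 19.8% of all counts in the Ly6Ghigh libraries and 30.0% to 30.2% in the Ly6Glow libraries, and those that fell took 8.62% to 8.66% and 3.26% to 3.30%. The scaling of the libraries mattered. TMM factors were 0.946 to 0.950 in Ly6Ghigh and 0.803 to 0.807 in Ly6Glow, and without them the log2 fold changes moved by a median of -0.24. The median over all tested genes was then -0.28 in place of -0.04, 570 genes were higher (4.04%) and 3730 lower (26.4%), and 13.3% of the calls were increases in place of 36.8%. FPKM values (fragments relative to transcript length and library total), which carry no such factor, gave 320 higher (2.27%) and 1923 lower (13.6%) genes with limma on log2(FPKM + 1). All 2250 decreases passed on library totals too, whereas only 570 of the 1310 increases did, so the smaller increases rest on the TMM factor. For a list of genes the count on FPKM is given where it differs by over 1.5 times or where the median changes sign. The counts of a list are to be read beside the shares over all tested genes. These were 9.29% higher and 15.9% lower on counts, and 2.27% and 13.6% on FPKM.

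**Figure D1:**
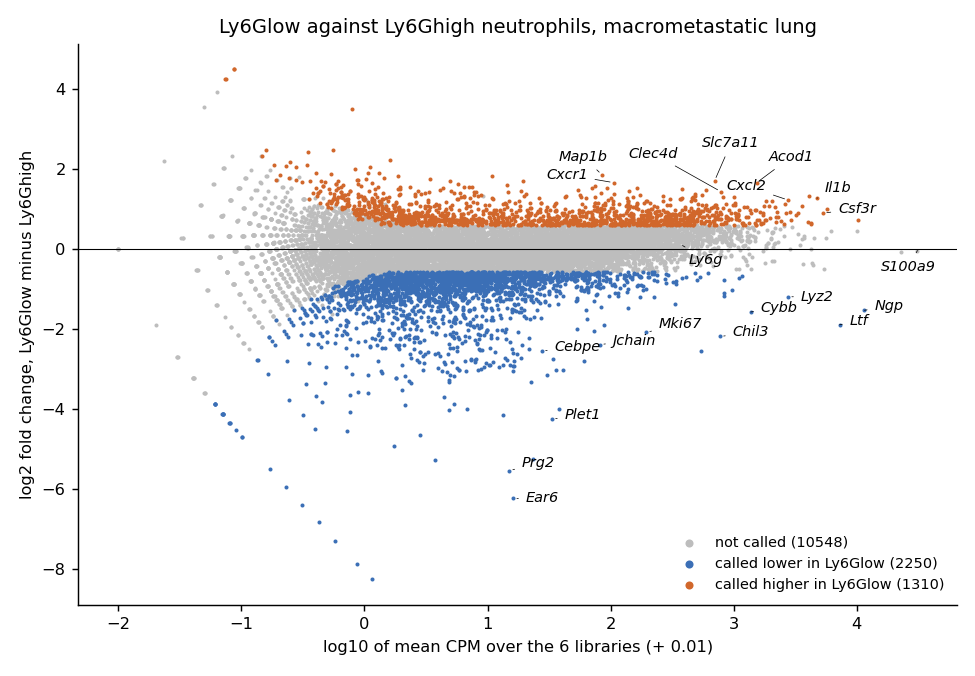
Log2 fold change of each tested gene (Ly6Glow minus Ly6Ghigh, vertical axis) against the log10 of its mean CPM over the 6 libraries (horizontal axis), with 1 point per gene. The 2250 genes that were lower (blue) reached further from 0 than the 1310 that were higher (orange), and Ly6g itself lay near 0.

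Ly6g transcript lay at about the same level in the groups that its protein had been used to sort. Ly6g was at 379.8, 361 and 380.1 CPM in the Ly6Ghigh and 385, 403 and 394 CPM in the Ly6Glow libraries, which is 0.08 ± 0.03 SE on the log2 scale (adjusted p = 0.0577) and turned to -0.16 on FPKM. The groups did not overlap, but the gap between their nearest libraries was smaller than the range within either group. The libraries held neutrophil RNA first of all. S100a8 and S100a9, the subunits of calprotectin and the most abundant cytosolic proteins of neutrophils, ranked 1 and 2 of 18325 genes by FPKM. S100a8 was at 65162 ± 1061 FPKM in Ly6Ghigh and 51718 ± 1049 FPKM in Ly6Glow (log2 fold change on counts -0.10), and S100a9 at 63276 ± 1583 FPKM in Ly6Ghigh and 51935 ± 560.2 FPKM in Ly6Glow (-0.05). Itgam, the CD11b chain of the Mac-1 integrin, was at 2858 ± 13.1 CPM in Ly6Ghigh and 2837 ± 29.8 CPM in Ly6Glow and did not pass.

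Some receptors of neutrophils, among them Csf3r, were higher in the Ly6Glow cells. Of the neutrophil identity list, 12 of 30 tested members rose, 3 fell and 15 did not pass, with a median log2 fold change of 0.43. Csf3r, the G-CSF receptor, was at 3751, 3746 and 3738 CPM in the Ly6Ghigh and 6838, 7036 and 6909 CPM in the Ly6Glow libraries and rose by 0.89 ± 0.03 SE on the log2 scale (adjusted p = 1.74e-16). Every Ly6Glow library lay above every Ly6Ghigh library. Cxcr2, the receptor for Cxcl2 through which neutrophils leave the marrow, rose from 1716 ± 19.5 to 2713 ± 75.1 CPM (mean ± SD, n = 3), and Trem1, an amplifier of inflammatory signals, from 1412 ± 3.27 to 2910.1 ± 32.6 CPM. Cd101, a surface protein of mature mouse neutrophils, rose from 46.8 ± 3.77 to 122 ± 1.67 CPM, the largest increase of the list (1.38 ± 0.06 SE). On FPKM the log2 fold changes of these 4 genes were 0.64, 0.42, 0.80 and 1.07, so that Cxcr2 no longer passed 0.58 on that scale. The 3 members that fell were of another kind. Cebpe, the transcription factor that drives specific granule genes in precursors, fell from 47.4 ± 0.927 to 8.07 ± 1.26 CPM, a log2 fold change of -2.56 ± 0.09 SE. Gfi1, a repressor active in granulocyte precursors, fell from 3.77 ± 0.120 to 0.778 ± 0.218 CPM (-2.27), and the adhesion molecule Ceacam1 was the other of the 3, both named after their values were seen.

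Transcripts of granule proteins that are made early were lower. Of the primary granule list, 1 of 11 tested members rose, 7 fell and 3 did not pass, with a median log2 fold change of -1.38. Ms4a3, a marker of granulocyte and monocyte progenitors, was at 13.1, 13.5 and 12.2 CPM in the Ly6Ghigh and 0.893, 0.828 and 0.686 CPM in the Ly6Glow libraries. It was 16.0 times lower in Ly6Glow by the fitted log2 fold change of -4.00 ± 0.19 SE. Mpo, myeloperoxidase, fell from 28.8 ± 1.47 to 6.74 ± 0.184 CPM, Prtn3, proteinase 3, from 36.1 ± 0.823 to 7.61 ± 1.04 CPM and Elane, neutrophil elastase, named after its value was seen, from 9.06 ± 0.622 to 1.28 ± 0.461 CPM. These 4 genes were low in both groups, whereas Lyz2, lysozyme, was abundant and fell from 3873 ± 82.0 to 1679.7 ± 35.4 CPM (-1.21 ± 0.03 SE). Serpinb1a, an inhibitor of the granule proteases, fell from 481 ± 7.13 to 185 ± 1.19 CPM. Srgn, the proteoglycan on which granule proteins are packed, was the exception and rose from 2317 ± 20.7 to 4873 ± 53.1 CPM (1.07 ± 0.03 SE).

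The secondary and tertiary granule list divided. In it, 3 of 20 tested members rose, 6 fell and 11 did not pass, with a median log2 fold change of -0.31 (on FPKM 2 higher, 10 lower, median -0.54). Ngp, the neutrophilic granule protein, was at 17289, 17092 and 17207 CPM in the Ly6Ghigh and 5979, 5959.9 and 5764 CPM in the Ly6Glow libraries, a decrease of 2.91 times and the largest loss in CPM of any gene that passed. Ltf, lactoferrin, was at 11598, 11399 and 11334 CPM in the Ly6Ghigh and 3072, 3063 and 3023 CPM in the Ly6Glow libraries and was 3.75 times lower. No Ly6Glow library reached the Ly6Ghigh range for either gene. Camp, the cathelicidin precursor whose peptide is carried on neutrophil extracellular traps, fell from 934 ± 18.6 to 159 ± 6.40 CPM (-2.55 ± 0.04 SE, adjusted p = 2.88e-21). Chil3, a chitinase-like protein of young neutrophils, fell from 1274 ± 23.5 to 277 ± 10.3 CPM and Fcnb, ficolin B, from 41.0 ± 1.13 to 4.09 ± 0.532 CPM. The 3 members that rose were a protease of the granules, a protease of the membrane and the metal transporter Slc11a1. Mmp8, neutrophil collagenase, rose from 2226 ± 26.3 to 3621 ± 50.4 CPM and Adam8, the membrane protease, from 1575 ± 3.02 to 2946 ± 44.2 CPM, while Mmp9, gelatinase B, was at 3315 ± 49.1 CPM in Ly6Ghigh and 3902 ± 54.0 CPM in Ly6Glow and did not pass. On FPKM, Mmp8 was at a log2 fold change of 0.47 and did not pass.

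The promoters of Ngp and Ltf, the genes with the largest losses in CPM, are shown because both hold the letters TTNNGCAA of C/EBP factors, the family of Cebpe. These are the 250 bases before the start, 5′ to 3′ on the gene's strand, from RefSeq (GRCm38.p6, the same assembly as the mm10 build in the labels), with matches on either strand in capitals. Ngp lies at chr9:110419558-110419807 on the plus strand and Ltf at chr9:111019042-111019291 on the plus strand.
Ngp: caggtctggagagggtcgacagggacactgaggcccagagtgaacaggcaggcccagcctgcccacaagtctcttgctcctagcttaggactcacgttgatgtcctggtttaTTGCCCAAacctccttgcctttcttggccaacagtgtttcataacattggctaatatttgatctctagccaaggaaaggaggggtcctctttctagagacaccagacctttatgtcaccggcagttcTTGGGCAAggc
Ltf: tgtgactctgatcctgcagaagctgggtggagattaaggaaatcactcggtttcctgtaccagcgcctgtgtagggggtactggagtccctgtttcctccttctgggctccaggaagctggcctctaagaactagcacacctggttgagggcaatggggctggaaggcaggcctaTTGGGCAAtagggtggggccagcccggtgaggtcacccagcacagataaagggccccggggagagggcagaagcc
In windows of 300 bases (the 250 before and 50 after a start) they were found at 9.50% of the starts of lowered genes, 9.86% of raised genes and 8.88% of all tested genes with a promoter in the table, 11213 of 14108. Here and below such a percent is a mean over genes of the share of a gene's starts that hold the letters.

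**Figure D2:**
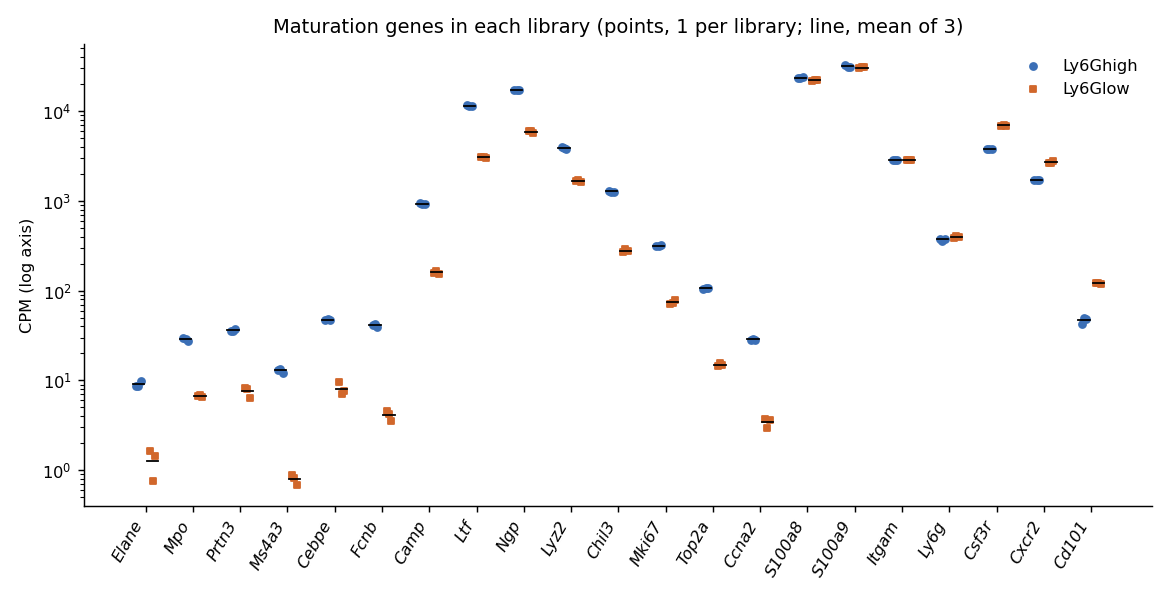
CPM of each library (log axis) for genes of neutrophil maturation, with 3 Ly6Ghigh libraries (circles) and 3 Ly6Glow libraries (squares) per gene and the mean of each group as a line. Granule and cell cycle genes at the left were lower in all Ly6Glow libraries, S100a8, S100a9, Itgam and Ly6g lay at about the same level, and Csf3r, Cxcr2 and Cd101 at the right were higher.

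The cell cycle genes fell almost as a block. Of this list, 0 of 30 tested members rose, 27 fell and 3 did not pass, with a median log2 fold change of -2.42. Mki67, the proliferation antigen Ki-67, was at 313, 315 and 320.3 CPM in the Ly6Ghigh and 71.1, 72.2 and 78.7 CPM in the Ly6Glow libraries, a decrease of 4.27 times (-2.09 ± 0.04 SE). Top2a, the topoisomerase that untangles replicated DNA, was at 105, 108 and 106 CPM in the Ly6Ghigh and 14.4, 15.8 and 14.8 CPM in the Ly6Glow libraries and was 7.08 times lower. Ccna2, cyclin A2, fell from 28.7 ± 0.464 to 3.42 ± 0.425 CPM, Ccnb1, cyclin B1, from 16.5 ± 1.74 to 2.12 ± 0.304 CPM, and the spindle checkpoint kinases Bub1 and Bub1b from 10.1 ± 0.394 to 1.26 ± 0.227 CPM and from 21.9 ± 1.04 to 2.81 ± 0.414 CPM. Cdca3, Kif14 and Cep55, proteins of mitotic entry and of cell division that are not on the list, were also among the 15 steepest decreases, at log2 fold changes of -3.06, -3.04 and -3.03. These transcripts were lower in every Ly6Glow library but were not at 0 in any. The Top2a promoter (chr11:99024190-99024439 on the minus strand) is shown because it holds CCAATCA, the letters bound by NF-Y in many mitotic genes, here in capitals on the opposite strand.
Top2a: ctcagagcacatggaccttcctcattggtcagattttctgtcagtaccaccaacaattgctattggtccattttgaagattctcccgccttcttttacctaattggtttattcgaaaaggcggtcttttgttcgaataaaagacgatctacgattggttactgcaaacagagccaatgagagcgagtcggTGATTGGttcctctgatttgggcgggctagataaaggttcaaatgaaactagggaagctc
NF-Y letters were at 13% of the starts of lowered genes, 8.16% of raised genes and 10.2% of all tested genes. For TTTCCCGC, the letters of E2F factors, the shares were 3.47%, 1.13% and 2.01%.

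In lists of protein synthesis, respiration, protein folding and sterol synthesis, the members that passed were lower with 1 exception, and many did not pass. Of the cytosolic ribosomal proteins, 1 of 81 tested members rose, 34 fell and 46 did not pass, with a median log2 fold change of -0.49 (on FPKM 0 higher, 57 lower, median -0.73). Rpl3 fell from 185 ± 7.89 to 87.0 ± 3.45 CPM and Rpl10a from 81.6 ± 3.30 to 39.3 ± 3.21 CPM, whereas Rps9, the most abundant member, was at 935 ± 16.9 CPM in Ly6Ghigh and 1019.9 ± 23.1 CPM in Ly6Glow and did not pass. Of the respiratory chain subunits, 0 of 78 tested members rose, 22 fell and 56 did not pass, with a median log2 fold change of -0.46 (on FPKM 0 higher, 48 lower, median -0.66). Atp5g2 and Atp5o, parts of ATP synthase, fell, with log2 fold changes of -1.15 ± 0.09 SE and -0.92 ± 0.07 SE. Of the ER chaperone list, 0 of 22 tested members rose, 8 fell and 14 did not pass, with a median log2 fold change of -0.36, and Hsp90b1, the chaperone of integrins and Toll-like receptors, fell from 245 ± 5.90 to 119 ± 4.82 CPM. Of the heat shock proteins, 0 of 18 tested members rose, 9 fell and 9 did not pass, with a median log2 fold change of -0.50. Hspa1a and Hspa1b, inducible Hsp70 genes of nearly the same sequence whose reads cannot be assigned with certainty to either, fell from 1146 ± 4.36 to 528 ± 17.4 CPM and from 1302 ± 14.6 to 640.1 ± 21.6 CPM. Of the cholesterol synthesis list, 0 of 22 tested members rose, 11 fell and 11 did not pass, with a median log2 fold change of -0.56, led by Hsd17b7 (-1.25 ± 0.09 SE), Sqle (-0.97 ± 0.10 SE) and Fdps (-0.95 ± 0.05 SE). Hmgn2, a nucleosome-binding protein, and Syne1, a nuclear envelope protein, were among the 10 largest losses in CPM, at log2 fold changes of -1.18 and -0.74.

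Some cytokines and chemokines were among the increases, though most of the chemokine ligands and other cytokines did not pass. Of all tested genes 9.29% rose. Il1b, the precursor of interleukin-1 beta, was at 2827, 2833 and 2736 CPM in the Ly6Ghigh and 6613, 6763 and 6719 CPM in the Ly6Glow libraries, an increase of 2.39 times (1.26 ± 0.03 SE, adjusted p = 1.80e-19). The groups did not overlap, and the log2 fold change on FPKM was 1.02. Of the interleukin-1 family, 7 of 15 tested members rose, 1 fell and 7 did not pass, with a median log2 fold change of 0.35 (on FPKM 5 higher, 2 lower, median 0.03). Il1rn, the receptor antagonist, rose from 276 ± 0.941 to 625 ± 14.5 CPM and Il1r2, the decoy receptor, from 1123 ± 16.8 to 2133 ± 36.3 CPM. Il1rap, the accessory chain of the signaling receptor, rose from 356 ± 2.20 to 756 ± 15.9 CPM. Sigirr, an inhibitory receptor of the family that was named after its value was seen, was the member that fell, from 3.54 ± 0.498 to 2.22 ± 0.346 CPM, and it did not pass on FPKM (-0.53).

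Chemokine ligands changed in a small set. Among them, 4 of 20 tested members rose, 0 fell and 16 did not pass, with a median log2 fold change of -0.06 (on FPKM 4 higher, 4 lower, median -0.25). The 4 that rose were Cxcl2, Cxcl3, Ccl3 and Ccl4, ligands of neutrophil and monocyte receptors. Cxcl2 was at 1650.5, 1667 and 1674 CPM in the Ly6Ghigh and 3683, 3772 and 4122 CPM in the Ly6Glow libraries, an increase of 2.32 times. Cxcl3 rose from 79.6 ± 1.18 to 190.4 ± 4.44 CPM, Ccl3 from 145 ± 2.85 to 262 ± 8.24 CPM and Ccl4 from 64.2 ± 0.522 to 147 ± 2.50 CPM. Among other cytokines and growth factors, 7 of 29 tested members rose, 2 fell and 20 did not pass, with a median log2 fold change of 0.02 (on FPKM 4 higher, 3 lower, median -0.11). Csf1, the growth factor of macrophages, rose from 436 ± 7.66 to 873 ± 13.7 CPM and Spp1, osteopontin, from 83.4 ± 0.706 to 192 ± 2.33 CPM, and the epidermal growth factor receptor ligand Areg rose from a low level, from 3.85 ± 0.850 to 11.2 ± 0.753 CPM. Inhba, a subunit of activin, went the other way, from 98.4 ± 3.93 to 29.3 ± 3.51 CPM (-1.75 ± 0.07 SE).

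Some sensing receptors rose too. Of the chemoattractant receptors, 10 of 24 tested members rose, 3 fell and 11 did not pass, with a median log2 fold change of 0.12 (on FPKM 3 higher, 4 lower, median -0.07). Cxcr1, a receptor for neutrophil chemokines, was at 51.4, 53.3 and 48.8 CPM in the Ly6Ghigh and 155, 165 and 161 CPM in the Ly6Glow libraries. It rose by 3.13 times (1.65 ± 0.05 SE), the most of this list, and Ptafr, the receptor for platelet-activating factor, rose from 486 ± 5.12 to 984 ± 7.88 CPM. Of the C-type lectin receptors, 4 of 14 tested members rose, 1 fell and 9 did not pass, with a median log2 fold change of -0.06 (on FPKM 3 higher, 2 lower, median -0.24). Clec4d, a receptor for fungal and mycobacterial lipids, was at 431, 419 and 429 CPM in the Ly6Ghigh and 1121, 1146 and 1166 CPM in the Ly6Glow libraries, and its partner Clec4e, Mincle, rose from 1235 ± 6.93 to 2603 ± 72.6 CPM. Clec7a, the beta-glucan receptor Dectin-1, rose from 439 ± 7.74 to 782 ± 17.0 CPM, and Clec12a, an inhibitory lectin, fell from 158 ± 3.26 to 73.5 ± 2.75 CPM. Of the pattern recognition receptors and the inflammasome, 10 of 26 tested members rose, 4 fell and 12 did not pass, with a median log2 fold change of 0.44 (on FPKM 4 higher, 2 lower, median 0.20). Cd14, the co-receptor for lipopolysaccharide, was at 2352, 2403 and 2379 CPM in the Ly6Ghigh and 5805, 6093 and 5706 CPM in the Ly6Glow libraries, an increase of 2.47 times. Nlrp3, the sensor that leads to interleukin-1 beta release, rose from 270.5 ± 0.615 to 648 ± 6.77 CPM (1.26 ± 0.03 SE). The 4 that fell were Nlrc4, Tlr3, Tlr9 and Pycard, at log2 fold changes of -1.08, -0.75, -0.63 and -0.62. Casp1 (0.31) and Gsdmd (0.27) did not pass, and all of these were named after their values were seen. Of the Fc and paired immunoglobulin-like receptors, 10 of 29 tested members rose, 2 fell and 17 did not pass, with a median log2 fold change of 0.45 (on FPKM 4 higher, 2 lower, median 0.18). Cd300ld, an activating receptor of myeloid cells, rose from 88.8 ± 2.64 to 216 ± 4.85 CPM and Lilrb4a, an inhibitory one whose reads can be shared with a near-identical neighbour, from 3310.4 ± 51.0 to 5116 ± 117 CPM. Cd84, a homophilic receptor that has been used to mark suppressive myeloid cells, was named after its value was seen and rose from 419 ± 6.89 to 719 ± 22.6 CPM (0.78 ± 0.04 SE, 0.54 on FPKM).

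**Figure D3:**
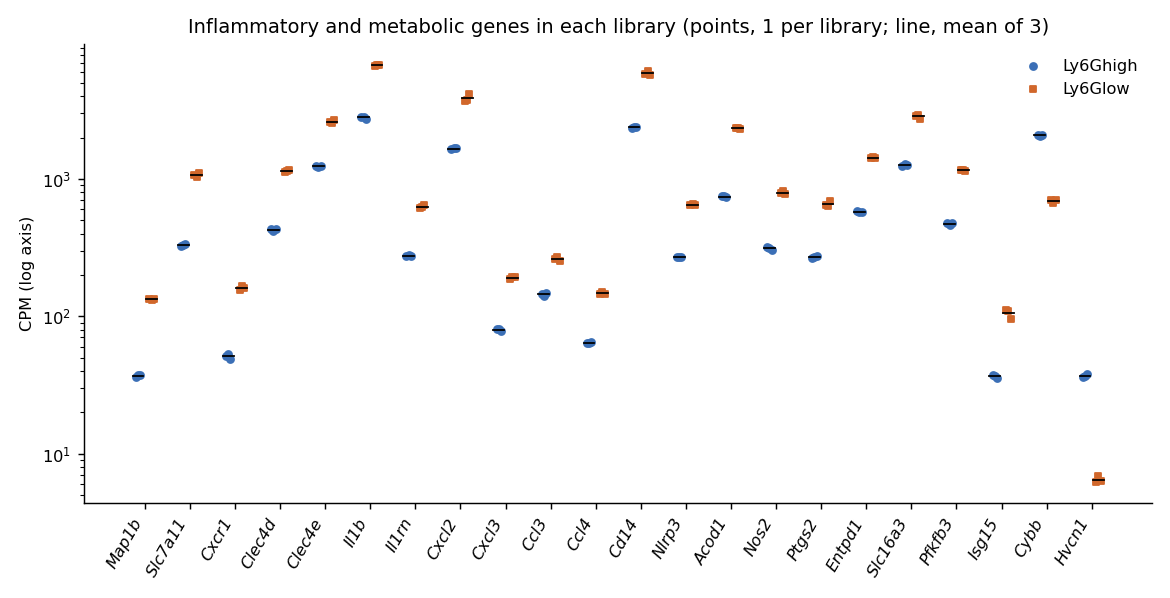
CPM of each library (log axis) for 22 inflammatory and metabolic genes, with 3 Ly6Ghigh libraries (circles), 3 Ly6Glow libraries (squares) and group means as lines. All genes from Map1b to Isg15 were higher in each Ly6Glow library, and Cybb and Hvcn1 at the right were lower.

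Transcription factors and feedback genes that act downstream of such receptors rose as well. Of the NF-kB list, 15 of 24 tested members rose, 0 fell and 9 did not pass, with a median log2 fold change of 0.62 (on FPKM 4 higher, 1 lower, median 0.37). Nfkbia, the inhibitor that NF-kB itself induces, was at 1249, 1238 and 1272 CPM in the Ly6Ghigh and 2218, 2243 and 2253 CPM in the Ly6Glow libraries. Nfkbid rose from 105 ± 1.01 to 215 ± 5.70 CPM, Nfkbiz, an activator of secondary response genes, from 1020.2 ± 7.66 to 1974 ± 7.95 CPM and Traf1 from 14.1 ± 0.669 to 27.7 ± 0.828 CPM. On FPKM, Nfkbia was at a log2 fold change of 0.60 and Traf1 at 0.65, near the threshold of 0.58. Of the immediate early and AP-1 list, 16 of 32 tested members rose, 4 fell and 12 did not pass, with a median log2 fold change of 0.54 (on FPKM 10 higher, 4 lower, median 0.30). Nr4a3, an orphan nuclear receptor, rose from 58.9 ± 0.831 to 152 ± 7.17 CPM, Dusp6, a phosphatase of ERK, from 86.8 ± 1.30 to 193 ± 2.30 CPM, and Fosl1, an AP-1 subunit, from 49.1 ± 1.60 to 109 ± 5.62 CPM, whereas Jun, Egr2, Myc and Dusp4, named after their values were seen, were the 4 that fell. The promoters of Cxcl2 (chr5:90903649-90903898 on the plus strand) and Nfkbia (chr12:55492648-55492897 on the minus strand) are shown because each holds the NF-kB motif, in capitals.
Cxcl2: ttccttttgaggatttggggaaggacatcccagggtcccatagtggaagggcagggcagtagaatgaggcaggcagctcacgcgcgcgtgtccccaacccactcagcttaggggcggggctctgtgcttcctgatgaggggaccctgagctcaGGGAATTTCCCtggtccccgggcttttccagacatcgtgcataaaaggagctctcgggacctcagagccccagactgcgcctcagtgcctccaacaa
Nfkbia: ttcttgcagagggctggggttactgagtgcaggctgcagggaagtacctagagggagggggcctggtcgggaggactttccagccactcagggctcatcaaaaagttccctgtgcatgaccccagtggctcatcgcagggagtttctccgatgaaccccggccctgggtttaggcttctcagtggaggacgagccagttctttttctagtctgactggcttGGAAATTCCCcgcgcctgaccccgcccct
That motif was added after values were seen, and over all genes it was at 11.3% of the starts of raised genes, 9.31% of lowered and 10.5% of all tested genes. The AP-1 letters TGANTCA were at 8.06%, 5.30% and 5.27%. All these shares are descriptions of letters in short windows, with no test.

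Cytokine receptors and their signaling proteins mostly did not pass, but a larger share rose and a smaller share fell than over all tested genes, of which 9.29% rose and 15.9% fell. In the list of colony-stimulating factor and cytokine receptors with JAK and STAT proteins, 9 of 32 tested members rose, 1 fell and 22 did not pass, with a median log2 fold change of 0.38 (on FPKM 3 higher, 2 lower, median 0.15). Besides Csf3r, the members that rose included Il13ra1, from 321 ± 9.69 to 614 ± 13.5 CPM, Il10ra, from 205 ± 4.69 to 378 ± 4.96 CPM, and the cytokine-induced kinase Pim1 and inhibitor Socs3, from 1619 ± 20.5 to 2805 ± 35.3 CPM and from 764 ± 26.8 to 1342 ± 43.8 CPM. The growth factor receptor Kit, on the basophil and mast cell list, also rose, from 104 ± 0.260 to 225 ± 2.69 CPM.

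Some genes of the immunosuppression list rose. Of this list, 8 of 27 tested members rose, 1 fell and 18 did not pass, with a median log2 fold change of 0.33 (on FPKM 6 higher, 4 lower, median 0.03). Not all its members suppress T cells. Of the costimulatory ligands Cd80 and Cd86, named after their values were seen, Cd80 rose (0.89) and Cd86 did not pass (0.33). Acod1, the enzyme that makes itaconate, was at 748, 747 and 737 CPM in the Ly6Ghigh and 2335, 2331 and 2319.6 CPM in the Ly6Glow libraries, an increase of 3.13 times (1.65 ± 0.03 SE). Nos2, inducible nitric oxide synthase, was at 321, 313 and 306 CPM in the Ly6Ghigh and 790.1, 809.8 and 774 CPM in the Ly6Glow libraries. Both were higher in every Ly6Glow library. Entpd1, the ectonucleotidase CD39, rose from 579 ± 2.99 to 1423 ± 10.2 CPM and Wfdc17, a secreted protein of activated myeloid cells, from 1125 ± 28.3 to 2549 ± 79.5 CPM. Arg1, arginase 1, named after its value was seen, was low in both groups, at 23.5 ± 1.23 CPM in Ly6Ghigh and 16.8 ± 1.85 CPM in Ly6Glow (-0.49 ± 0.08 SE), and did not pass.

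Among redox genes, the steepest increase was in the import of cystine. Slc7a11, the cystine importer that feeds glutathione synthesis, was at 326, 332 and 333 CPM in the Ly6Ghigh and 1069, 1028 and 1107 CPM in the Ly6Glow libraries, an increase of 3.23 times (1.69 ± 0.04 SE, adjusted p = 5.44e-19). Srxn1, sulfiredoxin, which restores oxidized peroxiredoxins, was at 40.0, 36.5 and 37.0 CPM in the Ly6Ghigh and 112, 113 and 114 CPM in the Ly6Glow libraries. Txnrd1, thioredoxin reductase, rose from 256 ± 6.97 to 471 ± 4.40 CPM. Of the cystine, glutathione and NRF2 list, 5 of 25 tested members rose, 3 fell and 17 did not pass, with a median log2 fold change of 0.13 (on FPKM 5 higher, 4 lower, median -0.11). Prdx1, a peroxiredoxin, fell from 55.2 ± 2.25 to 29.9 ± 0.906 CPM. Prdx5, another peroxiredoxin and an abundant member, was at 1016 ± 10.2 CPM in Ly6Ghigh and 1209.7 ± 31.5 CPM in Ly6Glow and did not pass. Of the ATF4 targets, genes of the response to amino acid shortage, 3 of 21 tested members rose, 4 fell and 14 did not pass, with a median log2 fold change of -0.01. These counts lay near the shares over all tested genes, of which 9.29% rose and 15.9% fell. Sesn2, an inhibitor of growth signaling, rose from 92.6 ± 3.37 to 184 ± 0.430 CPM and Mthfd2, an enzyme of mitochondrial folate metabolism, fell from 13 ± 1.51 to 4.99 ± 0.670 CPM. The Slc7a11 promoter (chr3:50443614-50443863 on the minus strand) is shown because it holds TGATGNAA, the letters of ATF4 with C/EBP, at 2 places in opposite directions, and the Srxn1 promoter (chr2:152105274-152105523 on the plus strand) because it holds the AP-1 letters TGANTCA at 2 places. Matches are in capitals.
Slc7a11: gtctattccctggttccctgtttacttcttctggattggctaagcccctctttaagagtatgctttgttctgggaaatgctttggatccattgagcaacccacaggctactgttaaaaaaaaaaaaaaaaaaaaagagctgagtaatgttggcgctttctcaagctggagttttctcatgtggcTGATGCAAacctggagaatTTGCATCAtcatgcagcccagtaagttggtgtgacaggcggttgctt
Srxn1: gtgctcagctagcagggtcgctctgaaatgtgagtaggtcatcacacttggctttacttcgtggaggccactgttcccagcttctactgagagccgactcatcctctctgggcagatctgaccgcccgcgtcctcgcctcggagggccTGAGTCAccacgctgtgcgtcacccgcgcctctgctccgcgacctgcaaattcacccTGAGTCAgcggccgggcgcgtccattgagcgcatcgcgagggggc
The ATF4 and C/EBP letters were at 3.37% of the starts of raised genes, 2.75% of lowered genes and 2.40% of all tested genes. For the NRF2 letters TGACNNNGC these shares were 14.9%, 14.8% and 14.5%.

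The NADPH oxidase, which makes the superoxide of the respiratory burst, was lower in its catalytic subunit. Of its genes, 0 of 9 tested members rose, 2 fell and 7 did not pass, with a median log2 fold change of 0.00 (on FPKM 0 higher, 4 lower, median -0.24). Cybb, the gp91phox subunit, was at 2074, 2059 and 2074 CPM in the Ly6Ghigh and 696, 673 and 699.7 CPM in the Ly6Glow libraries, a decrease of 3.00 times (-1.59 ± 0.03 SE, adjusted p = 4.54e-20). Hvcn1, the proton channel that sustains the burst, was at 35.9, 36.8 and 38.1 CPM in the Ly6Ghigh and 6.17, 6.85 and 6.33 CPM in the Ly6Glow libraries. Both decreases were far larger than the spread between libraries. Cyba, the partner subunit p22phox, was at 507 ± 11.5 CPM in Ly6Ghigh and 385 ± 24.3 CPM in Ly6Glow (-0.40) and the organizer Ncf1 at 2026 ± 13 CPM in Ly6Ghigh and 1575 ± 32.4 CPM in Ly6Glow (-0.36), and neither passed on counts, although both passed on FPKM. Ncf4, Cybc1, Rac1 and Rac2 were at log2 fold changes of 0.00, 0.39, 0.34 and 0.13, and none of them passed on either scale.

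Many interferon-stimulated genes were higher. Of this list, 20 of 36 tested members rose, 1 fell and 15 did not pass, with a median log2 fold change of 0.62 (on FPKM 6 higher, 1 lower, median 0.32). Isg15, a ubiquitin-like modifier, was at 37.5, 36.7 and 35.5 CPM in the Ly6Ghigh and 110.1, 109 and 95.4 CPM in the Ly6Glow libraries, an increase of 2.86 times, and no Ly6Glow library fell to the Ly6Ghigh range. Gbp2, a guanylate-binding protein, rose from 84.8 ± 1.60 to 195 ± 2.88 CPM, Rtp4 from 46.7 ± 3.56 to 103 ± 4.15 CPM and Rsad2, viperin, from 9.08 ± 0.938 to 20.5 ± 0.474 CPM. The most abundant member, Slfn4, was at 5052 ± 30.6 CPM in Ly6Ghigh and 6098 ± 145 CPM in Ly6Glow (0.27 ± 0.03 SE) and did not pass. The Isg15 promoter (chr4:156200819-156201068 on the minus strand) is shown because it holds GAAANNGAA, the letters of the interferon-stimulated response element, in overlapping copies in capitals.
Isg15: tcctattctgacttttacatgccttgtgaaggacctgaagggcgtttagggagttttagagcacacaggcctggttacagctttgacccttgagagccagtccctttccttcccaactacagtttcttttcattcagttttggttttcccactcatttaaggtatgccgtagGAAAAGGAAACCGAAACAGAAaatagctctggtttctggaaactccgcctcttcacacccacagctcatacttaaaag
These letters were at 10.1% of the starts of raised genes, 7.38% of lowered genes and 7.55% of all tested genes.

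A minority of the glycolysis genes rose, where 9.29% of all tested genes did. Of the glycolysis list, 8 of 23 tested members rose, 1 fell and 14 did not pass, with a median log2 fold change of 0.32 (on FPKM 3 higher, 2 lower, median 0.08). Slc2a1, the glucose transporter Glut1, rose from 451 ± 9.26 to 919 ± 13.5 CPM, Slc16a3, the lactate exporter, from 1259 ± 12.9 to 2851 ± 99.6 CPM and Pfkfb3, the activator of phosphofructokinase, from 472 ± 7.84 to 1152 ± 13.5 CPM. Gapdh and Pkm, enzymes of the pathway itself, were at 4117 ± 144 CPM in Ly6Ghigh and 4950.0 ± 169.5 CPM in Ly6Glow and at 3366 ± 46.0 CPM in Ly6Ghigh and 4039 ± 141 CPM in Ly6Glow, and did not pass. Of the hypoxia targets, 8 of 20 tested members rose, 0 fell and 12 did not pass, with a median log2 fold change of 0.47. Bnip3, a mitophagy receptor, rose from 58.9 ± 1.53 to 141 ± 4.20 CPM, Egln3, an oxygen-sensing hydroxylase, from 93.8 ± 5.43 to 196 ± 4.00 CPM, and Hif1a itself from 482 ± 9.67 to 863 ± 36.0 CPM. The HIF core letters ACGTG were at 25.3% of the starts of raised genes and 24.6% of all tested genes.

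Lipid genes moved in both directions, and the lysosomal enzymes that passed were lower with 1 exception. Over all tested genes 9.29% rose and 15.9% fell. Of the lipid uptake and storage list, 4 of 25 tested members rose, 9 fell and 12 did not pass, with a median log2 fold change of -0.11. Abca1, the cholesterol exporter, was at 198, 201 and 201 CPM in the Ly6Ghigh and 564, 549.6 and 583 CPM in the Ly6Glow libraries, and Hilpda, an inhibitor of lipolysis on lipid droplets, rose from 56.4 ± 0.854 to 124 ± 2.85 CPM. Lpl, lipoprotein lipase, fell from 73.5 ± 3.84 to 8.94 ± 0.482 CPM and Msr1, a scavenger receptor, from 30.2 ± 1.37 to 16.0 ± 1.76 CPM. Lpl is also on the list of alveolar macrophage markers. Of the lysosomal enzymes, 1 of 28 tested members rose, 8 fell and 19 did not pass, with a median log2 fold change of 0.01 (on FPKM 0 higher, 8 lower, median -0.23), with Gusb falling from 48.1 ± 1.96 to 25.4 ± 0.467 CPM and Lamp2 rising from 665 ± 12.4 to 1125 ± 30.8 CPM. Of the subunits of the V-ATPase, the lysosomal proton pump, 0 of 17 tested members rose, 1 fell and 16 did not pass, with a median log2 fold change of 0.23 (on FPKM 0 higher, 2 lower, median 0.00), the decrease being that of Atp6v0d2 (from 25.3 ± 0.699 to 1.42 ± 0.251 CPM), an isoform of macrophages and osteoclasts. Of the eicosanoid genes, 4 of 22 tested members rose, 5 fell and 13 did not pass, with a median log2 fold change of -0.15 (on FPKM 2 higher, 6 lower, median -0.32). Ptgs2, cyclooxygenase 2, rose from 270.1 ± 4.35 to 658 ± 26.5 CPM and Pla2g7, which breaks down platelet-activating factor, from 541 ± 8.12 to 1087 ± 7.41 CPM. Lta4h, the enzyme that makes leukotriene B4, fell from 205 ± 3.10 to 73.1 ± 2.17 CPM and Alox15, the 12/15-lipoxygenase, from 54.5 ± 0.420 to 6.07 ± 0.0413 CPM. Alox15 is also on the list of eosinophil markers.

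Most apoptosis genes did not pass, but a larger share rose than over all tested genes, of which 9.29% rose and 15.9% fell. Of the apoptosis list, 7 of 27 tested members rose, 3 fell and 17 did not pass, with a median log2 fold change of 0.11 (on FPKM 5 higher, 2 lower, median -0.08). Bcl2l11, which codes for the death-promoting Bim, rose from 274 ± 0.963 to 701 ± 10.9 CPM and Bcl2l1, which codes for the protective Bcl-xL, from 153 ± 6.14 to 382 ± 6.52 CPM, and Mcl1, on which neutrophil survival depends, from 3118 ± 22.6 to 4899 ± 124 CPM. Bcl2a1d, 1 of several near-identical copies, fell from 10.7 ± 0.482 to 3.68 ± 0.377 CPM, and its reads could not be assigned with certainty. Of the adhesion molecules, 5 of 27 tested members rose, 5 fell and 17 did not pass, with a median log2 fold change of 0.10 (on FPKM 2 higher, 6 lower, median -0.14). Cd44, a hyaluronan receptor, rose from 1866 ± 2.99 to 2994 ± 26.6 CPM, while Spn, the mucin CD43, and Itgb7, an integrin chain, fell from 74.8 ± 2.24 to 31.9 ± 0.903 CPM and from 42.6 ± 1.97 to 20.2 ± 0.699 CPM. Of the matrix proteases and their inhibitors, 5 of 21 tested members rose, 5 fell and 11 did not pass, with a median log2 fold change of 0.13 (on FPKM 2 higher, 6 lower, median -0.10). Mmp12, macrophage elastase, fell from 13 ± 0.476 to 3.45 ± 0.404 CPM. Of the actin cytoskeleton list, 1 of 30 tested members rose, 1 fell and 28 did not pass, with a median log2 fold change of 0.17 (on FPKM 0 higher, 1 lower, median -0.06). Actg1, cytoplasmic gamma actin, rose from 7812 ± 51.5 to 12733 ± 294 CPM, the largest gain in CPM of any gene that passed (0.70 ± 0.03 SE, 0.47 on FPKM), and Actb, whose sequence is close to it, was at 8541 ± 164 CPM in Ly6Ghigh and 11624 ± 237 CPM in Ly6Glow and did not pass.

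The steepest increase among genes that passed, did not overlap between groups and reached 10 CPM in Ly6Glow was Map1b, a microtubule-associated protein best known from neurons, at 36.1, 37.5 and 37.0 CPM in the Ly6Ghigh and 133, 130.4 and 134 CPM in the Ly6Glow libraries (1.85 ± 0.05 SE, adjusted p = 1.66e-18). The other genes among the 15 largest increases that have not been named were Homer1, a synaptic scaffold protein (from 84.4 ± 1.33 to 241 ± 13.7 CPM), St3gal6, a sialyltransferase that takes part in selectin ligands (from 48.7 ± 1.04 to 139 ± 2.11 CPM), Smox, spermine oxidase (from 317 ± 4.52 to 870.4 ± 27.5 CPM), Eef1aknmt, a methyltransferase of elongation factor 1A (from 7.17 ± 0.419 to 21.8 ± 1.51 CPM), and the predicted genes Gm2260, Gm30732 and 4931406B18Rik. Gm2260 varied the most, at 4.24, 7.08 and 3.03 CPM in the Ly6Ghigh and 9.26, 18.1 and 23.3 CPM in the Ly6Glow libraries. Among the 10 largest gains in CPM, Fth1, ferritin heavy chain, rose from 3883 ± 64.4 to 7673 ± 142 CPM, Plek, pleckstrin, from 1665 ± 27.9 to 3604 ± 106 CPM, Retnlg, resistin-like gamma, from 2341 ± 31.1 to 4332 ± 109.9 CPM and Mxd1, an antagonist of Myc, from 3340.0 ± 11.3 to 5148 ± 27.0 CPM. Among the raised genes named with their values, Actg1, Cd44, Cd84, Cxcr2, Lamp2, Lilrb4a, Mcl1, Mmp8, Mxd1, Pim1 and Socs3 did not pass 0.58 on library totals or on FPKM, and among those that had not passed, Arg1, C1qa, Cyba and Ncf1 were called lower on both and Marco on library totals.

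**Figure D4:**
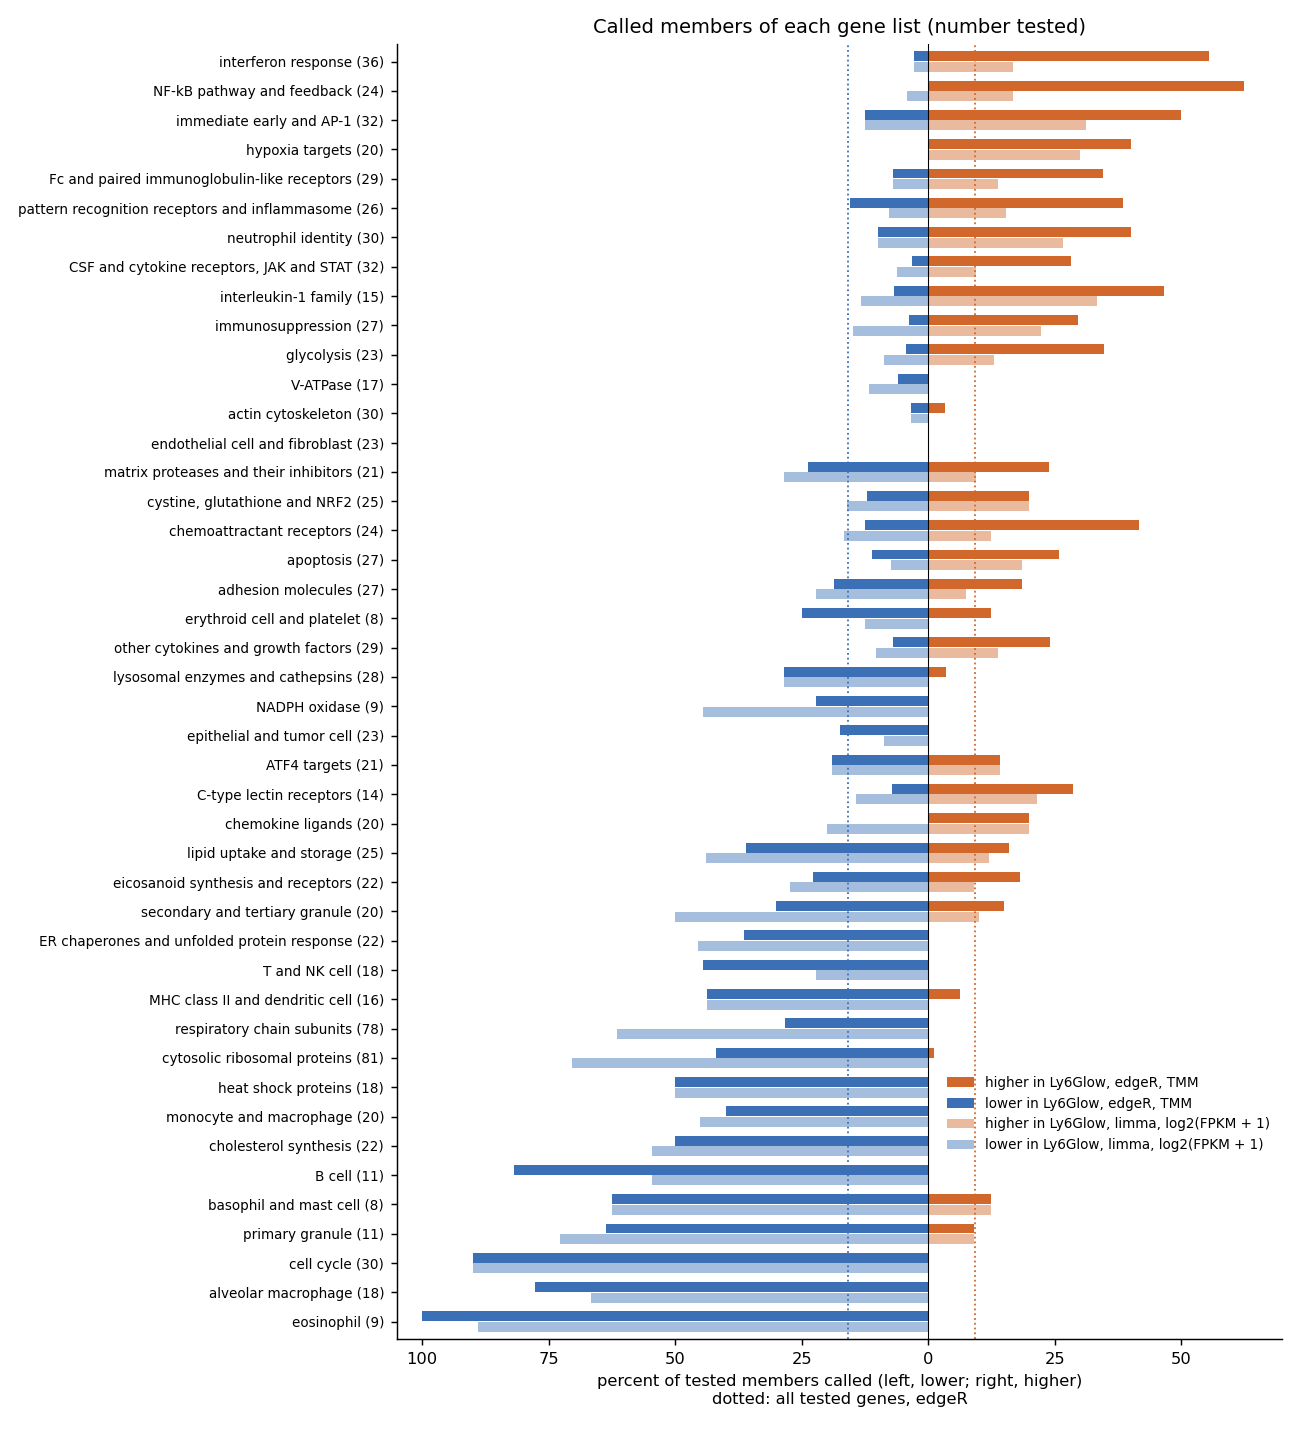
Percent of the tested members of each gene list that were higher (right) or lower (left) in Ly6Glow neutrophils, ordered by the median log2 fold change, with edgeR on counts as dark bars and limma on log2(FPKM + 1) as pale bars. Dotted lines mark the share over all tested genes (9.29% higher and 15.9% lower), and at the right the pale bars are shorter than the dark bars for most lists.

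Many markers of other leukocytes also fell, where 15.9% of all tested genes did. The eosinophil list was the clearest: all 9 tested members fell, with a median log2 fold change of -4.00, and its summed level was 247 to 263 CPM in Ly6Ghigh and 18.8 to 20.6 CPM in Ly6Glow libraries. On FPKM 8 of them fell. Il5ra, named after its value was seen, fell the least (-0.69, and -0.45 on FPKM). Ear6, an eosinophil-associated ribonuclease, was at 33.8, 31.3 and 30.7 CPM in the Ly6Ghigh and 0.325, 0.452 and 0.457 CPM in the Ly6Glow libraries, and Prg2, major basic protein, at 29.6, 30.5 and 28.2 CPM in the Ly6Ghigh and 0.650, 1.05 and 0.152 CPM in the Ly6Glow libraries. Ear1 and Ear2, close relatives of Ear6 between which reads may have been divided, were at log2 fold changes of -5.26 ± 0.11 SE and -4.00 ± 0.08 SE. Epx, eosinophil peroxidase, was at 1.64 ± 0.0911 CPM in Ly6Ghigh and 0.128 ± 0.0406 CPM in Ly6Glow, at least 7.05-fold lower against a floor of 3 counts per library. These transcripts were few beside those of neutrophils, whose identity list summed to 85010 to 87080 CPM in Ly6Ghigh and 98380 to 100500 CPM in Ly6Glow. In bulk samples fewer cells of a type and less RNA per cell cannot be told apart.

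Of the alveolar macrophage list, 0 of 18 tested members rose, 14 fell and 4 did not pass, with a median log2 fold change of -2.56. Plet1, a surface protein of these cells, fell from 63.6 ± 1.34 to 3.32 ± 0.466 CPM and Mrc1, the mannose receptor, from 119 ± 1.98 to 28.6 ± 0.292 CPM. The defining markers Marco and Car4 were at 0.829 ± 0.105 CPM in Ly6Ghigh and 0.541 ± 0.0577 CPM in Ly6Glow, and at 18.6 ± 1.43 CPM in Ly6Ghigh and 15.5 ± 0.946 CPM in Ly6Glow, and did not pass. Siglecf, named after its value was seen, did not pass either, at a mean of 31.4 CPM in Ly6Ghigh and 29.5 CPM in Ly6Glow (-0.09). The list's sum was 1504 to 1556 CPM in Ly6Ghigh and 1676 to 1749 CPM in Ly6Glow, most of it from Chil1 (1083 ± 29.4 CPM in Ly6Ghigh and 1558 ± 34.9 CPM in Ly6Glow), which neutrophils also express. Of the monocyte and macrophage list, 0 of 20 tested members rose, 8 fell and 12 did not pass, with a median log2 fold change of -0.52. F13a1, coagulation factor XIII, fell from 88.6 ± 2.36 to 42.0 ± 2.03 CPM, whereas C1qa was at 13 ± 1.74 CPM in Ly6Ghigh and 9.19 ± 0.518 CPM in Ly6Glow and Adgre1, F4/80, at 54.6 ± 2.70 CPM in Ly6Ghigh and 43.9 ± 2.69 CPM in Ly6Glow. The sum of this list was 1390.0 to 1405 CPM in Ly6Ghigh and 1395 to 1447 CPM in Ly6Glow. Axl, a receptor for dying cells that is not on the list, fell from 64.2 ± 0.430 to 7.79 ± 0.712 CPM. Of the MHC class II and dendritic cell list, 1 of 16 tested members rose, 7 fell and 8 did not pass, with a median log2 fold change of -0.43 (on FPKM 0 higher, 7 lower, median -0.49), with Cd74, the invariant chain, falling from 347 ± 8.94 to 206 ± 8.60 CPM and H2-Ab1 from 141 ± 6.13 to 82.9 ± 4.19 CPM, and sums of 862 to 909.8 CPM and 529 to 569 CPM.

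Of the B cell list, 0 of 11 tested members rose, 9 fell and 2 did not pass, with a median log2 fold change of -0.72. Jchain, the joining chain of secreted antibodies, fell from 139 ± 7.43 to 26.3 ± 0.629 CPM and Cd79a, of the antigen receptor, from 12.4 ± 0.828 to 7.37 ± 1.11 CPM, and the list summed to 193 to 209 CPM in Ly6Ghigh and 60.8 to 65.0 CPM in Ly6Glow. Of the T and NK cell list, 0 of 18 tested members rose, 8 fell and 10 did not pass, with a median log2 fold change of -0.40 (on FPKM 0 higher, 4 lower, median -0.27), with Cd3e at 3.09 ± 0.458 CPM in Ly6Ghigh and 3.09 ± 0.424 CPM in Ly6Glow, Ncr1 below the filter, and sums of 91.1 to 93.1 CPM and 66.9 to 70.2 CPM. Of the T and NK members that fell, only Cd3d had a mean above 10 CPM in Ly6Ghigh. In DESeq2 5 members fell, and 5 to 7 fell with single libraries left out. Of the basophil and mast cell list, 1 of 8 tested members rose, 5 fell and 2 did not pass, with a median log2 fold change of -0.81, with Mcpt8 falling from 11.7 ± 1.60 to 6.79 ± 1.28 CPM, and its sums, 149 to 151 CPM and 249.8 to 254 CPM, were carried by Kit. Of the epithelial and tumor cell list, 0 of 23 tested members rose, 4 fell and 19 did not pass, with a median log2 fold change of -0.01 (on FPKM 0 higher, 2 lower, median -0.08), with Epcam falling from 1.96 ± 0.474 to 0.900 ± 0.343 CPM (log2 fold change -1.11, but -0.50 and not passing on FPKM) and sums of 176 to 184 CPM and 183 to 191 CPM. The 4 of 23 lay near the 15.9% of all tested genes that fell. No member of the endothelial cell and fibroblast list passed in edgeR's test or on FPKM, with Cdh5 at 25.9 ± 0.551 CPM in Ly6Ghigh and 29.6 ± 1.50 CPM in Ly6Glow and Col1a1 at 7.81 ± 1.28 CPM in Ly6Ghigh and 8.20 ± 0.650 CPM in Ly6Glow, and sums of 269 to 276 CPM and 302 to 313 CPM. Of the erythroid cell and platelet list, 1 of 8 tested members rose, 2 fell and 5 did not pass, with a median log2 fold change of 0.06 (on FPKM 0 higher, 1 lower, median -0.03), and its members summed to no more than 11.1 CPM in any library, with Hba-a1 at 0.141 ± 0.0693 CPM in Ly6Ghigh and 0.181 ± 0.0421 CPM in Ly6Glow and Pf4 at 0.546 ± 0.264 CPM in Ly6Ghigh and 0.492 ± 0.0984 CPM in Ly6Glow. Some members that did not pass had almost no reads. Krt5 of the epithelial list and Hba-a2 of the erythroid list were at 0 CPM in both groups and entered through normal lung. With the 6 libraries alone, 15 epithelial members were tested (0 higher, 3 lower) and 3 erythroid and platelet members (1 higher, 1 lower). The part of these other cells in the decreases of genes that neutrophils share with them, among them Cybb, Lyz2 and the ribosomal proteins, was not tested. Nor was it tested for Lpl, Atp6v0d2 and Alox15, which are also on the lists of other cells.

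**Figure D5:**
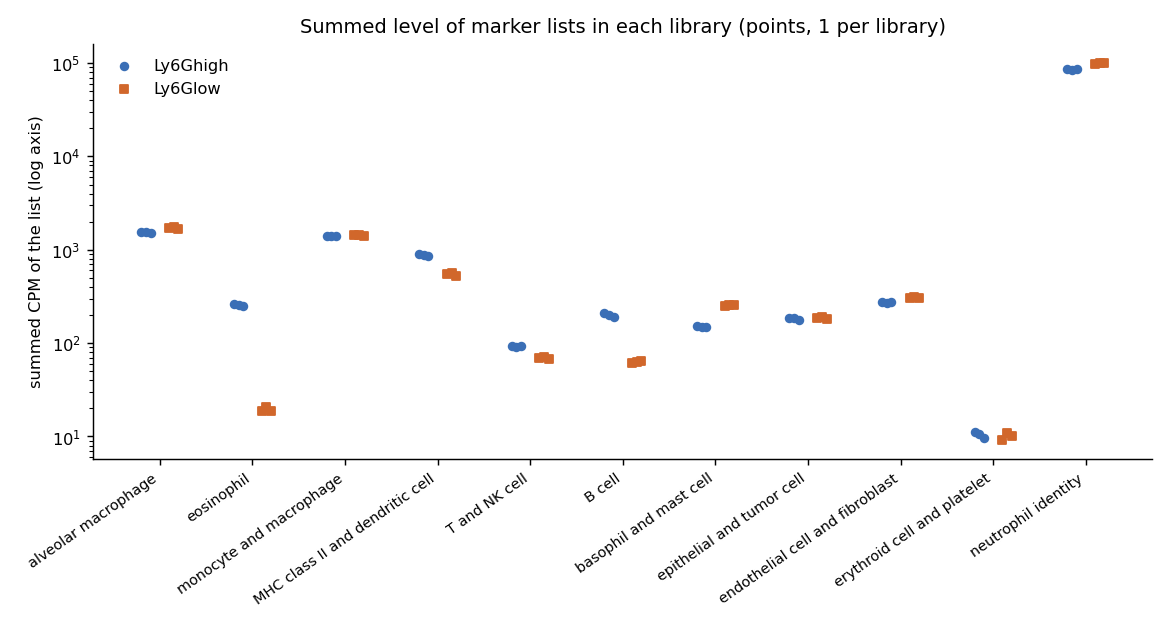
Summed CPM of each marker list (log axis) in the 3 Ly6Ghigh (circles) and 3 Ly6Glow (squares) libraries. The eosinophil and B cell sums were lower in every Ly6Glow library, the endothelial and fibroblast sum was not, and the neutrophil identity sum at the right stood far above all others.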

How the data were processed

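By the study's general method, lungs were digested with collagenase, freed of red cells and stained for CD45, CD11b and Ly6g. Ly6Glow and Ly6Ghigh cells of macrometastatic lungs were sorted, for which the RNA-seq methods name CD45 and Ly6g. Poly(A) RNA was sequenced as strand-specific paired-end libraries. The authors deposited an estimated count of reads per gene, with fractions of reads and no normalization. They also deposited FPKM values, scaled by the authors to transcript length and fragment total, for the same genes. The submitters' processing notes name the build mm10; the aligner, the counter and the annotation are not given in the sources used here. Of 22064 genes listed, 3739 had no values. The deposited counts, 37.9% of them whole, were rounded. Genes were filtered with filterByExpr and tested with edgeR 4.0.16 (TMM factors, quasi-likelihood test, R 4.3.3) in 1 fit of all 9 libraries, with no covariate but the group. The threshold was a Benjamini-Hochberg adjusted p of 0.05 over the 14108 tested genes with an absolute log2 fold change above 0.58. FPKM values were tested with limma 3.58.1 on log2(FPKM + 1), on which scale the changes of low genes are understated. DESeq2 1.42.0 was an alternative. All adjusted p-values printed are edgeR's.

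The comparison, the gene lists and the tests were chosen with earlier results of these data known. Named were Ly6g, the 5 genes that came with the choice of the comparison (Map1b, Slc7a11, Cxcr1, Clec4d and Il1b), the 15 largest increases and decreases among genes that passed without overlap of the groups and with 10 CPM or more in the higher group, the 10 largest gains and losses in CPM, and from each list the most abundant and the most changed members, all members of lists of fewer than 10 genes and the defining markers of other cell types. Names outside this rule, Slc11a1 among them, were chosen after their values were seen. Lists are described by counts and medians with no set test. The labels do not say that replicate numbers pair the libraries. Same-numbered libraries of the groups had correlations of -0.025, -0.068 and 0.017 between their deviations from the group means. The fitted spread between libraries was small (median coefficient of variation 0.043), so these values cannot tell whether same-numbered libraries came from the same mice. With 3 libraries a group, an exact permutation test of a single gene cannot go below p = 0.1. Promoter windows came from RefSeq (GRCm38.p6), matched by symbol or gene number for 11213 tested genes, and motifs were searched on both strands. Some genes are not reported here.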

Additional observations from a re-analysis of the deposited data

How the results depend on the processing

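The count of 3560 genes was 3594 with DESeq2's size factors, 3560 with upper-quartile factors, 3257 in DESeq2, 3602 with no filter on low counts, 2972 with at least 10 counts in every library, 3423 from the 6 libraries alone and 3749 at an unadjusted p. Leaving out each library in turn gave 3387 to 3510 genes, 1217 to 1273 higher and 2168 to 2237 lower. With the replicate number as a block it was 3522 genes, 1294 higher and 2228 lower. The labels do not say that the numbers pair the libraries. Counts moved by over 1.5 times on library totals (570 higher and 3730 lower), with limma on log2(FPKM + 1) (2243 in all, 320 higher), the same with FPKM of at least 1 in 3 libraries (2223 in all, 320 higher), on log2(FPKM + 0.1) (510 higher and 3578 lower), with no fold-change threshold (7868 in all, 3686 higher and 4182 lower) and with a threshold of 1 (1305 in all, 342 higher and 963 lower). Increases made up 36.8% of the calls, 13.3% on library totals, 14.3% on log2(FPKM + 1), 45.3% with DESeq2's size factors and 44.6% in DESeq2. Leaving out the TMM factors moved the log2 fold changes by a median of -0.24.

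Among the 180 named genes recomputed, those that changed sign had not passed in the first place. On library totals, log2(FPKM + 1), log2(FPKM + 0.1) and FPKM of at least 1, in this order, Ly6g was at -0.160, -0.159, -0.160 and -0.159, Rac2 at -0.110 in all 4, Rps9 at -0.111 in all 4, Mmp9 at -0.00131, -0.00125, -0.00125 and -0.00125, Cdh5 at -0.0467, -0.0391, -0.0449 and -0.0391, Col1a1 at -0.162, -0.0872, -0.146 and -0.0872, and Cd3e at -0.228, -0.156, -0.227 and -0.156. Cd3e was also at -0.0111 with no filter and -0.00283 with at least 10 counts in every library, and between -0.104 and 0.109 with single libraries left out. With DESeq2's size factors and in DESeq2, Itgam was at 0.0552 and 0.0484, S100a9 at 0.0172 and 0.0104, and Ncf4 at 0.0644 and 0.0575. Ncf4 was at 0.000963 with upper-quartile factors and 0.00364 from the 6 libraries alone, and between -0.0339 and 0.0154 without single libraries. Over the same left-out libraries Hba-a1 was between -0.0074 and 0.554 and Pf4 between -0.499 and 0.114. Of the recomputed genes that passed, Egr2 (-0.558 without Ly6Glow replicate 2) and Sigirr (-0.553 without Ly6Glow replicate 3) lost their call when a library was left out, and Egr2 and Jun lost it with DESeq2's size factors (-0.534 each). Of those that had not passed, Marco was called lower on library totals (-0.841) and log2(FPKM + 0.1) (-0.639), and Chil1 higher with DESeq2's size factors (0.591) and in DESeq2 (0.584). The depth of 15267177 counts or more per library limits only genes at the low end, such as Epx.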
